A study of Ovis aries with 2 samples.

Results

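The cells described here are LGR5-positive hair follicle stem-like cells of the skin of newborn Hu sheep lambs. A cell was selected when KRT15 (LOC101117682 in the table) reached at least 50 UMIs per 10000 UMIs of that cell (CP10K), at least 1 UMI of LGR5 was counted, at least 1 of the 3 genes SFRP1, PPP2R2B and FIBIN was detected, and KRT6A stayed under 20 CP10K. This rule found 554 of 14037 cells. In the straight wool library 195 of 6452 cells were selected, and in the curly wool library 359 of 7585 cells.

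The lambs were Hu sheep of 3 days of age. Skin from the body side of 3 straight wool lambs was pooled into 1 library, and skin of 3 curly wool lambs, whose wool is called waved in the sample labels, into another. Microdissected follicles and whole skin were digested separately and the cell suspensions mixed before 10× Genomics single-cell RNA-seq. The labels name no treatment. Lambs of a pool cannot be told apart in the data, and with 1 library per wool type no test of straight against curly wool was possible. All intervals below are exact 95% intervals that cover counting error only, and differences between lambs, pools or digestions are not in them.

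LGR5 is a receptor for R-spondins, secreted proteins that strengthen WNT signalling, and in mouse skin it marks stem cells of the lower bulge and the hair germ that feed the growing follicle. The mouse bulge is a niche in the outer root sheath whose basal cells carry keratins 5, 14 and 15, rest on a basement membrane through hemidesmosomes and divide rarely. SOX9, TCF7L1 and TBX1 are transcription factors known from these cells, and SFRP1 is a secreted WNT antagonist. The authors of the study describe sheep as lacking a bulge structure.

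The straight library held 57956122 UMIs and the curly library 77634565 UMIs over 18161 genes, with a median of 7373.5 and 7495 UMIs per cell. The selected cells had a median of 6583 UMIs and 1920 genes in the straight library, and of 6271 UMIs and 1762 genes in the curly library. The curly library stood apart in interferon-induced genes in every group of cells examined, including the endothelial cells (log2 ratio of IFI6 6.83). The libraries shared 70 cell barcodes, which 1 straight and 2 curly selected cells carried, and no barcode belonged to a selected cell in both. Endothelial reference cells, with at least 2 of KDR, CDH5 and PECAM1 detected (135 straight and 91 curly cells, median 7825 and 5530 UMIs), served as the level to which free RNA can raise follicle genes.

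Selected cells made up 3.02% (2.62 to 3.47%) of the straight library and 4.73% (4.27 to 5.24%) of the curly library, a log2 ratio of 0.65 (0.39 to 0.91). This is a difference between 1 pool and another. With the KRT15 threshold raised to 100 CP10K the log2 ratio was 0.30 (-0.07 to 0.68), an interval that includes no difference.

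The genes of the rule chose the cells, so their values are a description. The sums of KRT15 gave 10859.3 UMIs per 1000000 UMIs of the group (CPM) in the selected cells of the straight library and 10031 CPM in those of the curly one, with a median per cell of 102.2 and 89.92 CP10K. At the threshold, the lowest selected cells lay at 50.58 and 50.67 CP10K, and the highest cells that met all other conditions at 49.5 and 49.93. Between 50 and 60 CP10K there were 19 straight and 55 curly selected cells, and between 40 and 50 there were 14 and 52 cells outside, so no gap separated the cells at this value. The highest KRT6A level of a selected cell was 16.42 in straight and 19.87 in curly, and 1 curly cell was left out for KRT6A, at 22.23 CP10K.

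LGR5 itself was sparse. It gave 372 UMIs (283.2 CPM) in straight and 750 UMIs (328.2 CPM) in curly selected cells, and 103 of 195 and 158 of 359 of them rested on a single LGR5 UMI. After thinning every cell to 3000 UMIs, LGR5 was found in 52.35% of straight and 61.44% of curly selected cells, and went undetected in the rest of them at that depth. Of the endothelial cells so thinned, 0 of 106 straight cells held LGR5, which allows up to 2.83%, and 1.449% of 69 curly cells held it.

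SFRP1 was by far the most frequent of the other 3 genes, at 1098 and 1067 CPM, in 188 of 195 straight and 347 of 359 curly cells. Thinned, it was present in 84.56% and 88.4% of the selected cells and in 3.774% and 7.246% of the endothelial cells. PPP2R2B, a regulatory subunit of protein phosphatase 2A, was found in 84 straight and 195 curly cells, and FIBIN, a secreted factor named for its role in fin bud formation, in 88 and 173 cells. Thinned, PPP2R2B was present in 28.86% and 36.36% and FIBIN in 33.56% and 26.96% of the selected cells. Among the endothelial cells so thinned, PPP2R2B was in 0 of 106 and 0 of 69, which allows up to 2.83% and 4.348%, and FIBIN in 0 of 106 and in 1.449%. All 3 genes occurred together in 47 straight (24.1%) and 97 curly cells (27.02%). The plot of the rule genes per cell shows SFRP1 across most cells and the other genes in part of them.

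**Figure D1:**
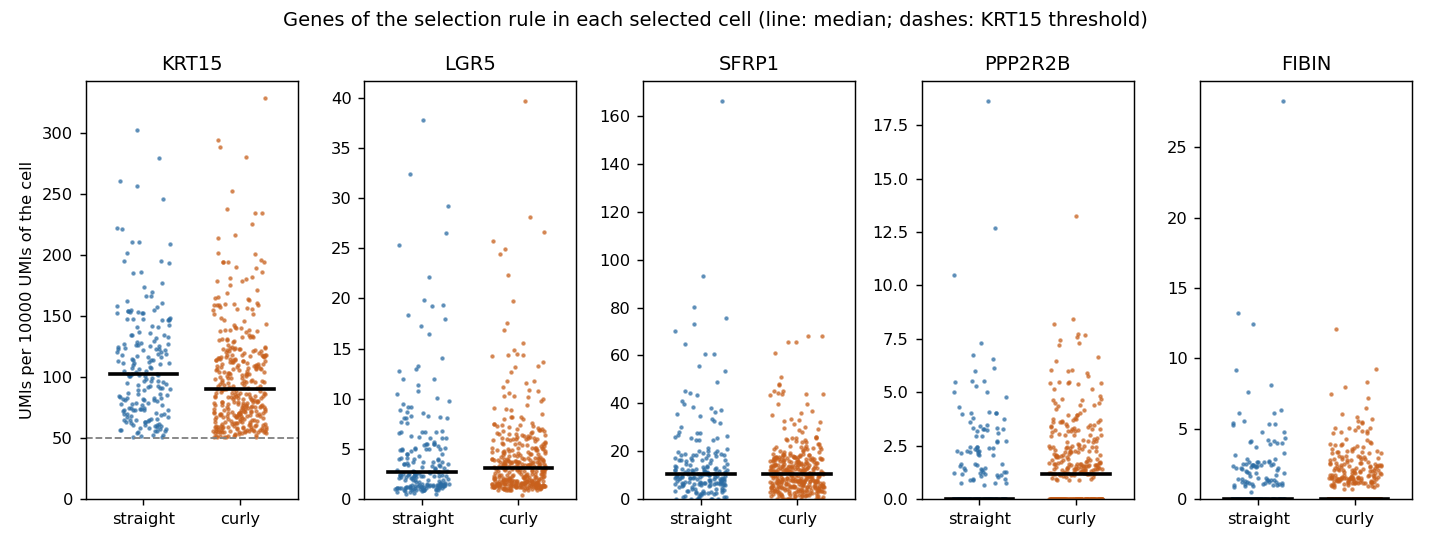
UMIs per 10000 UMIs of the cell (y axis, a scale of its own in each panel) for the genes of the rule in each of the 195 straight and 359 curly selected cells (points), with the median as a line and the KRT15 threshold of 50 as dashes. The median of KRT15 was 102.2 in straight and 89.92 in curly cells, and the medians of FIBIN lay at 0 in both libraries.

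The selected cells lay near each other also when the genes of the rule were left out. From 2000 variable genes without KRT15, LGR5, SFRP1, PPP2R2B, FIBIN and KRT6A, 41.3% of the 30 nearest cells of a straight selected cell were themselves selected, against 3.02% of the library. In the curly library the share was 57.1%, against 4.73%. In straight skin 90 of 195 selected cells (46.2%), and in curly skin 263 of 359 (73.3%), had at least 15 selected cells among their 30 neighbours, while 8 and 5 had no selected neighbour.

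Among the other neighbours were KRT15-high cells in which no LGR5 was counted. These LGR5-zero KRT15-high cells (781 straight and 599 curly cells, KRT15 at least 50 CP10K, KRT6A under 20, no condition on the other 3 genes) supplied 40.1% of the neighbours in straight and 18.3% in curly skin, against 12.1% and 7.9% of the cells of the libraries. Cells with LGR5 but KRT15 under 50 CP10K, called other LGR5-positive cells here (279 straight and 436 curly cells, median 8523 and 11435.5 UMIs), supplied 6.34% and 15.6%, against 4.32% and 5.75% of the cells. Endothelial cells supplied 0% in both. Seen from outside, 10.7% and 18.4% of the neighbours of LGR5-zero cells were selected cells, and 48 straight (6.15%) and 95 curly (15.9%) LGR5-zero cells had at least 15 of them.

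**Figure D2:**
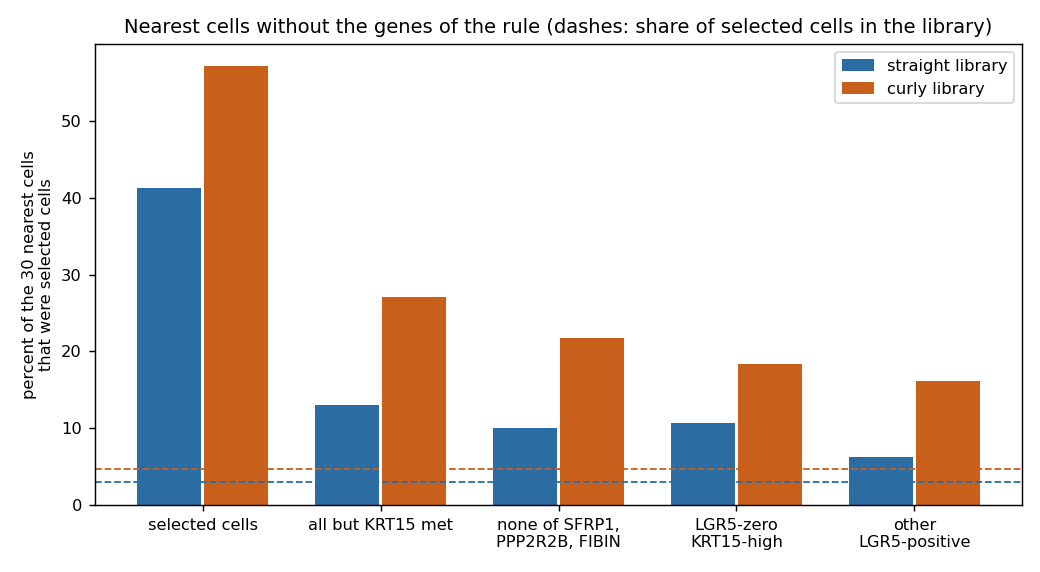
Percent of the 30 nearest cells that were selected cells (y axis), for selected cells and 4 other groups of cells (x axis), in the straight (blue) and curly (orange) library, with the share of selected cells in the library as dashes. The bars of the selected cells reach 41.3% and 57.1%, and those of the LGR5-zero KRT15-high cells 10.7% and 18.4%.

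Against the LGR5-zero KRT15-high cells, the selected cells held more NTM, CHODL, SHISA2 and BGN and less TFF3, SCGB2A2 and HAMP. Of 7621 genes with at least 100 UMIs, 125 (1.64%) were at least 2-fold higher and 197 (2.58%) at least 2-fold lower in both libraries. When each cell counted equally instead of each UMI, 85 were higher and 212 lower. Fewer genes passed when the LGR5-zero group was narrower. Restricted to the 413 straight and 367 curly LGR5-zero cells that also held SFRP1, PPP2R2B or FIBIN, a comparison chosen after the values were seen, 54 of 6406 genes were higher and 85 lower, of which 49 and 77 were among those above.

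The gene with the highest ratio in its less extreme library was NTM, neurotrimin, a cell adhesion molecule known from neurons. Selected cells held 24.36 (straight) and 35.45 CPM (curly) of it and LGR5-zero cells 3.609 and 4.855 CPM, or 6.7 and 7.15 times as much. CHODL, a membrane protein with a C-type lectin domain, followed at 44.15 and 28.01 CPM against 7.389 and 4.585. SHISA2, which holds back the maturation of Frizzled and FGF receptors, was at 71.55 and 88.4 CPM against 8.076 and 16.18. In both libraries the intervals of the log2 ratios of these genes lay above 1.

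BGN, biglycan, a proteoglycan of the extracellular matrix, was the most abundant gene of this kind, at 444.5 and 728.2 CPM in selected cells and 96.23 and 159.4 CPM in LGR5-zero cells. Thinned, BGN was found in 61.07% of straight and 68.65% of curly selected cells, in 16.61% and 23.09% of LGR5-zero cells, and in 0 of the 106 and 0 of the 69 endothelial cells, which allows up to 2.83% and 4.348%. AEBP1, another matrix protein, was at 40.34 and 58.64 CPM against 7.733 and 15.1. The receptor tyrosine kinase RET reached 24.36 and 37.2 CPM against 3.78 and 9.979. Among the 12 genes named by rank were also FAM129A (82.21 and 84.9 CPM against 15.47 and 20.23), the small GTPase gene ARL15, the neutral amino acid transporter SLC1A4, the endothelin EDN2, the ubiquitin ligase RNF152 and the MAP kinase phosphatase DUSP10, with log2 ratios from 1.85 to 2.60.

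At the other end stood TFF3, a trefoil peptide of mucous secretions. The selected cells held 2 and 1 UMIs of it, or 1.522 and 0.4376 CPM, against 167.2 and 68.51 CPM in LGR5-zero cells (log2 ratios -6.46, -9.83 to -4.92, and -6.71, -12.60 to -4.80). SCGB2A2, a secretoglobin of glands, gave 1 and 2 UMIs against 100.2 and 46.39 CPM. WFDC2, a secreted protein of glandular epithelia, had 0 and 8 UMIs against 13.75 and 39.38 CPM, which in straight skin is at least 6.02-fold lower. A UMI of TFF3, SCGB2A2, LTF or WFDC2 was present in 93 straight (11.9%) and 75 curly (12.5%) LGR5-zero cells, and in 3 (1.54%) and 9 (2.51%) of the selected cells. The endothelial cells held 3 and 1 UMIs of TFF3. With those LGR5-zero cells left out, also after the values were seen, 89 genes were higher and 150 lower.

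Of the other genes lowest in the selected cells, PTHLH, which encodes a parathyroid hormone-like signal, gave 3 and 2 UMIs against 35.91 and 29.67 CPM. HAMP, the iron hormone hepcidin, gave 1 and 0 UMIs against 35.23 and 19.42 CPM, in curly skin at least 14.8-fold lower. ALDH3A1, an aldehyde dehydrogenase, SNORC, a chondroitin sulphate proteoglycan, and LOC105604412, for which no name was found, completed the 8 genes. HAMP, ALDH3A1 and PTHLH stayed lower without the LGR5-zero cells that held a gland UMI. The less extreme of their log2 ratios in the libraries was then -4.66, -3.87 and -3.75, against -4.95, -3.80 and -3.76 with those cells.

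The rest of the 8 depended on those cells. The LGR5-zero cells with a gland UMI held all 93 straight and 41 curly UMIs of SNORC in the LGR5-zero group, and 154 of 156 and 10 of 10 of LOC105604412. For TFF3, SCGB2A2 and WFDC2, by which these cells were picked, the rest of the LGR5-zero cells held 0 UMIs by construction. None of these 5 genes (TFF3, SCGB2A2, WFDC2, SNORC and LOC105604412) then reached 100 UMIs, and nearly all of the difference rested on 93 straight and 75 curly LGR5-zero cells. The fixed list of sweat gland and myoepithelial genes had 0 of 7 members higher and 0 lower. Of all genes 2.26% were higher and 3.73% lower, so 0 calls in a list this short was not read as a result. Without the LGR5-zero cells that held a gland UMI, KRT19 and KRT7 of this list were at least 2-fold higher (smaller log2 ratios 2.27 and 1.02).

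**Figure D3:**
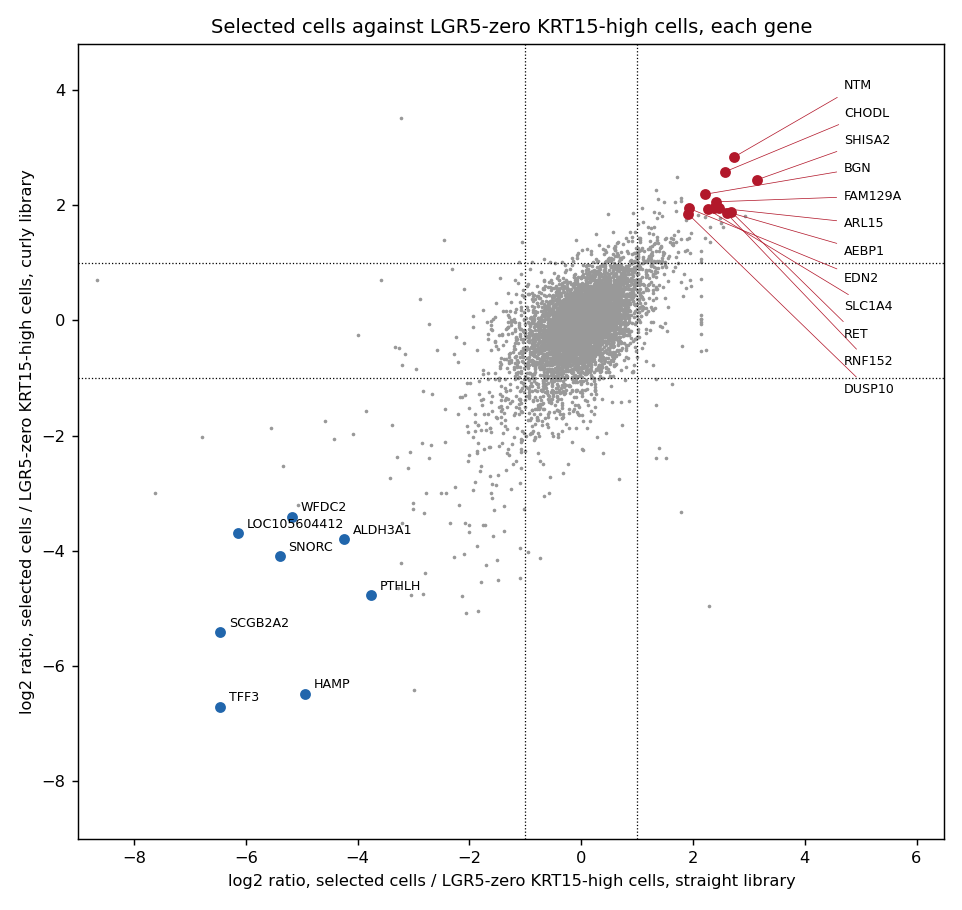
Each point is 1 of the 7621 genes with at least 100 UMIs, with the log2 ratio of selected to LGR5-zero KRT15-high cells in the straight library on the x axis and in the curly library on the y axis, with 0.5 UMI added to each sum and dotted lines at 2-fold. The 12 genes named as higher (red) and the 8 as lower (blue) stand away from the cloud, with NTM at 2.74 and 2.84 and TFF3 at -6.46 and -6.71, and points for genes with 0 UMIs on a side are not bounds.

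Transcription factors of follicle stem cells were shifted towards the selected cells. Of 16 such factors with at least 20 UMIs, 5 were at least 2-fold higher than in LGR5-zero cells in both libraries and 0 were lower, with a median log2 ratio of 0.68 in straight and 0.75 in curly skin. Over all 11547 genes with at least 20 UMIs the medians were 0.02 and -0.05, and 2.26% were higher and 3.73% lower. TCF7L1, a repressor of WNT target genes, was at 50.24 and 64.33 CPM against 20.11 and 28.05, with 26.69 and 28.68 CPM in endothelial cells. TBX1 was at 43.39 and 36.32 CPM against 13.4 and 14.02, and ID4, an inhibitor of DNA binding, at 103.5 and 112.9 against 34.02 and 41.8. NFIB (14.46 and 17.51 CPM) and GLI1 (10 and 12 UMIs) were the other members of the 5.

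Restricting the LGR5-zero cells to those with SFRP1, PPP2R2B or FIBIN brought the smaller of the 2 log2 ratios of TCF7L1 from 1.20 to 0.72, so under that choice it was no longer 2-fold higher in both libraries. NFIB went from 1.06 to 0.61, and to 0.90 without the cells that held a gland UMI, and so lost its place as well. For TBX1 the value went from 1.37 to 1.10 and for ID4 from 1.43 to 1.04. SOX9, which maintains follicle stem cells, was at 382.9 and 311.6 CPM against 236.1 and 251.1 (log2 ratios 0.70 and 0.31), and its smaller value became 0.00. TP63, RUNX1 and NFATC1 were not 2-fold apart in both libraries, FOXC1 stood at 15.22 and 9.19 CPM against 29.9 and 22.12, and LHX2 was not analysed here.

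Surface and secreted stem cell markers were divided. Of 23 with at least 20 UMIs, 3 were at least 2-fold higher and 2 lower in both libraries than in LGR5-zero cells. LRIG1, a brake on epidermal growth factor receptors, was at 89.06 and 116.4 CPM against 28.35 and 43.69. IGFBP5, which binds insulin-like growth factors, was at 92.87 and 145.3 against 33.34 and 35.06. CD34, the marker of the mouse bulge, was the other gene of the 3 but gave 8 and 15 UMIs, 6.09 and 6.564 CPM, while the endothelial cells held 320.2 and 254.9 CPM of it. CD200, a marker of the human bulge, had 3 and 1 UMIs, and IGFBP3 was lower at 238.3 and 120.3 CPM against 501.1 and 357.1.

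CXCL14, a chemokine of follicle epithelium, was abundant in both groups, at 4886 and 2238 CPM in selected and 4502 and 2471 CPM in LGR5-zero cells, so it did not set them apart. Among the relatives of LGR5, LGR4 was at 52.52 and 39.39 CPM and LGR6 had 3 and 1 UMIs. PHLDA1 was on the low side, at 86.78 and 45.51 CPM against 199.3 and 89.27.

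WNT signalling genes moved in both directions, more of them down than up. Of 39 with at least 20 UMIs, 4 (10.3%) were at least 2-fold higher and 8 (20.5%) at least 2-fold lower than in LGR5-zero cells. Of all genes 2.26% were higher and 3.73% lower. The medians of the list were 0.25 and -0.12. On the receptor side, the Frizzled receptor FZD1 was higher, at 56.33 and 92.78 CPM against 26.29 and 42.88, as was the co-receptor LRP6, at 63.18 and 70.46 against 31.62 and 30.75. With the restricted LGR5-zero cells their smaller log2 ratios were 0.56 and 0.70. The secreted antagonist SFRP5 was sparse at 4.567 and 9.19 CPM.

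The ligands WNT7A and WNT7B of the WNT list were not analysed here. Of the other 12 WNT ligands on it, 7 had at least 20 UMIs, and 4 of those (WNT3, WNT4, WNT6 and WNT16) were at least 2-fold lower and 0 higher. WNT10A, WNT11 and WNT5A were not, with WNT10A at 19.79 and 22.76 CPM against 39.35 and 31.56 and log2 ratios of 0.76 and 0.80 for WNT5A. WNT3 gave 4 UMIs in straight and 0 in curly selected cells against 27.15 and 18.61 CPM, in curly skin at least 14.2-fold lower. WNT16 gave 1 and 1 UMIs against 10.65 and 12.14 CPM, and WNT4 3.045 and 1.313 CPM against 13.58 and 19.42. The WNT inhibitors APCDD1 (13.7 and 5.689 CPM against 29.56 and 27.51) and DKK1 (3 and 1 UMIs) were lower too. With the restricted LGR5-zero cells the less extreme log2 ratio of APCDD1 went from -1.07 to -0.72, so it was no longer 2-fold lower. DKK1 (-1.27), WNT4 (-1.04), WNT6 (-1.26), WNT3 (-2.83) and WNT16 (-2.68) stayed so. Targets of the pathway were near the limit of detection, with AXIN2 at 7 and 3 UMIs, LEF1 at 4 and 6, and NKD1 at 1 and 0.

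Most genes of the attachment to the basement membrane differed less than 2-fold from LGR5-zero cells, with medians of 0.29 and 0.27. Of 19 with at least 20 UMIs, 2 (10.5%) were at least 2-fold higher and 0 lower in both libraries. Of all genes 2.26% were higher and 3.73% lower. COL7A1, which forms anchoring fibrils, was at 122.6 and 96.72 CPM against 58.43 and 41.53, and COL4A1, a chain of basement membrane collagen, at 103.5 and 105.9 against 32.99 and 42.61. With the restricted LGR5-zero cells the smaller log2 ratio of COL7A1 went from 1.07 to 0.73, and to 0.99 without the cells that held a gland UMI, so it was no longer 2-fold higher, while COL4A1 stayed at 1.02 and 1.19. COL17A1, a hemidesmosome collagen known for holding follicle stem cells in place, differed little, at 424.8 and 413.1 CPM against 444 and 474.7.

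Keratins divided the selected cells from LGR5-zero cells in an uneven way. KRT5 was at 8166 and 9396 CPM against 11488.6 and 12870.1 (log2 ratios -0.49 and -0.45). KRT8, a keratin of simple and glandular epithelia, was higher, at 279.4 and 443.8 CPM against 91.07 and 177.5, and 0 and 27.08 CPM in endothelial cells. KRT19, its type I counterpart, was at 296.1 and 602.2 CPM against 214.6 and 166.4, with log2 ratios of 0.47 and 1.85. With the LGR5-zero cells that held SFRP1, PPP2R2B or FIBIN the smaller ratio of KRT19 was 1.21, and without those that held a gland UMI it was 2.27, so under both choices it was at least 2-fold higher in both libraries. For KRT8 the smaller ratio went from 1.32 to 0.86 and 1.23. Keratins are a family of similar genes, and how reads shared between copies were counted could move these values.

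Genes of S phase and mitosis were low. Of 18 genes, 0 were at least 2-fold higher and 5 (27.8%) lower than in LGR5-zero cells, with medians of -0.99 and -1.12. Of all genes 2.26% were higher and 3.73% lower. MKI67, the proliferation marker, gave 2 and 3 UMIs over 195 and 359 cells, and TOP2A, the topoisomerase of dividing cells, 3 and 12. PCNA, the DNA replication clamp, was at 92.87 and 59.52 CPM against 147.8 and 111.1. On a list of cell cycle arrest genes and D cyclins, 0 of 14 were 2-fold apart in both libraries. Beside the shares of all genes, 0 calls in a list this short was not read as a result. The inhibitor CDKN1C was at 105 and 161 CPM against 50.86 and 97.63. The G1 cyclin CCND1 was at 77.64 and 92.34 CPM against 175.8 and 173.7.

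**Figure D4:**
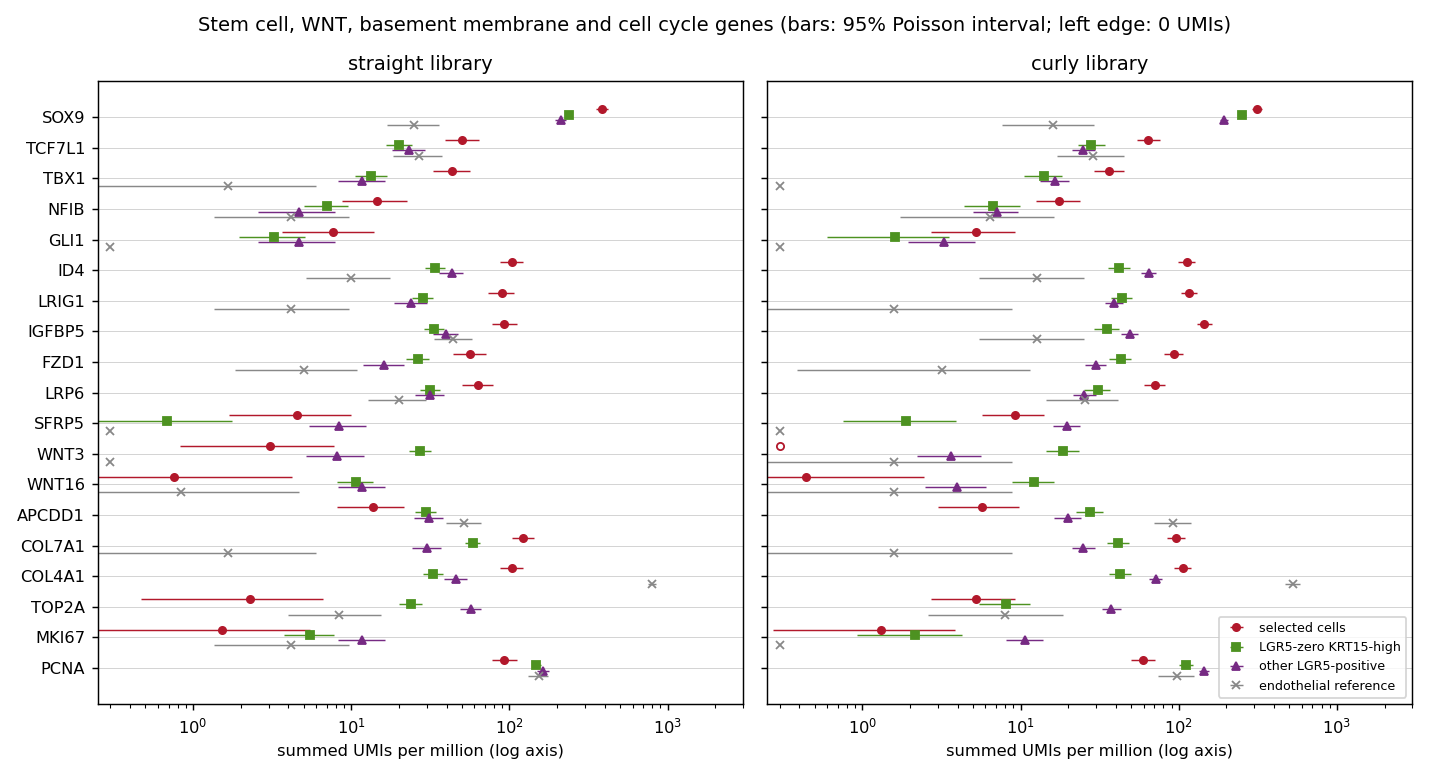
Summed UMIs per 1000000 UMIs (x axis, log scale) of 19 named genes in selected cells (red), LGR5-zero KRT15-high cells (green), other LGR5-positive cells (purple) and endothelial reference cells (grey), straight library left and curly library right, with 95% Poisson intervals as bars and 0 UMIs drawn near the left edge. Selected cells lie highest of the 4 groups for LRIG1 and TBX1 and lowest for PCNA in both panels.

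Against the other LGR5-positive cells, which share LGR5 and lack high KRT15, the selected cells held more CHODL, A4GALT and ADAMTSL4 and less C1QTNF12, DCN and PCLAF. Of 7156 genes with at least 100 UMIs, 288 (4.02%) were at least 2-fold higher and 284 (3.97%) at least 2-fold lower in both libraries, or 123 and 279 when each cell counted equally. CHODL was at 44.15 and 28.01 CPM in selected cells and its log2 ratios were 5.24 and 3.43. A4GALT, the synthase of the glycolipid Gb3, was at 26.64 and 27.57 CPM against 2.69 and 2.174, and ADAMTSL4, a matrix protein that binds fibrillin, at 75.36 and 42.45 against 7.06 and 5.073. DKK3, of the dickkopf family, was at 36.54 and 106.8 CPM against 7.06 and 13.05. NTM, SUSD3, SNX10 and LOC101120688 were the others of the 8 highest.

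Of the lower genes, C1QTNF12, a secreted C1q-like protein, stood at 2 and 7 UMIs, 1.522 and 3.063 CPM, against 100.2 and 106.2 CPM. DCN, decorin, a small proteoglycan that binds collagen, was at 15.22 and 26.7 CPM against 481.1 and 628.6, or 30.8 and 23.4 times less. PCLAF, a partner of PCNA, was at 9.134 and 7.44 CPM against 88.42 and 91.32, and ASF1B, a histone chaperone, at 1 and 3 UMIs against 11.43 and 13.77 CPM. The peptidase DPP4, the secreted protein WFDC1, the hormone STC1 and LOC101112555 were the others.

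Among the gene lists, those of cell division and the hair matrix were lower and that of the basement membrane higher, while the keratins were divided. Of the 18 S phase and mitosis genes 13 were at least 2-fold lower and 0 higher than in the other LGR5-positive cells, and 5 of 8 hair matrix genes were lower, among them LEF1 at 3.045 and 2.626 CPM against 22.86 and 16.67. Of 18 hemidesmosome and basement membrane genes 7 were higher and 0 lower, with medians of 0.97 and 0.83, COL17A1 standing at 424.8 and 413.1 CPM against 148.3 and 138.4. Of 7 basal and outer root sheath keratins 1 was higher and 1 lower, with medians of 0.40 and 0.27. Of 22 surface and secreted markers 9 were higher and 2 lower, with GAS1, a growth arrest protein, at 51.76 and 69.15 CPM against 15.13 and 21.02 and NPNT, nephronectin of the bulge basement membrane, at 44.15 and 40.26 against 12.44 and 9.422. Of 16 transcription factors 6 were higher and 0 lower, NFIX reaching 140.8 and 140.9 CPM against 49.42 and 44.94 and BARX2 194.1 and 245.9 against 75.31 and 100. Over all 11375 genes with at least 20 UMIs, 4.51% were higher and 5.62% lower.

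Signalling lists other than WNT were balanced in this comparison, while of 41 WNT genes 6 (14.6%) were higher and 12 (29.3%) lower. Of 23 BMP, activin and TGF-beta genes 1 was higher and 2 lower, the higher one being the activin subunit INHBB, at 23.6 and 29.76 CPM against 9.75 and 10.69. Of 28 SHH, NOTCH, EDA and FGF genes 3 were higher and 3 lower. PDGFA, a ligand for the dermal cells beside the follicle, was at 129.4 and 153.6 CPM against 56.82 and 57.44, and NOTCH3 at 4.567 and 4.814 against 27.23 and 20.84. TXNIP, an inhibitor of thioredoxin, was at 387.5 and 547.5 CPM against 159 and 184.6.

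Against all other cells of the libraries, the selected cells held more FNDC1, THBS1, CHODL and FEZ1. Of 13190 genes with at least 100 UMIs, 697 (5.28%) were at least 2-fold higher and 1450 (11%) at least 2-fold lower in both libraries, or 462 and 1826 when each cell counted equally. FNDC1 was the highest by ratio, at 15.99 and 22.32 CPM against 0.5473 and 0.6636. TSPAN8, a tetraspanin, and SORCS2, a sorting receptor, were likewise sparse, at 10 and 36 and at 15 and 28 UMIs in the selected cells.

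THBS1, thrombospondin 1, was the most abundant of the 12 genes named, at 569.4 and 652.5 CPM against 56.95 and 57.8. It was found in 75.38% of straight and 86.91% of curly selected cells. Thinned to 3000 UMIs the shares were 57.72% and 68.97%, against 24.18% and 33.55% of LGR5-zero cells and 3.774% and 5.797% of endothelial cells. FEZ1 was at 73.84 and 89.28 CPM against 6.338 and 9.555 and HS6ST2, a heparan sulphate sulphotransferase, at 19.03 and 14 against 1.165 and 0.9954. CHODL, ADAMTSL4, PKNOX2, NACAD, DAPK2 and LOC101120688 completed the list.

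Marker lists of other cell types were compared with the endothelial cells. The 9 endothelial genes summed to 8.373 and 6.127 CPM, with 5 of them at 0, against 3306 and 4063 CPM in the endothelial cells. The 12 dermal genes summed to 303 and 101.5 CPM against 7558 and 10460.6, and the 10 leukocyte genes to 62.42 and 18.38 against 687.2 and 947.9. The endothelial cells also held more of both lists than all other cells (2309 and 1111 CPM dermal, 317.7 and 82.84 CPM leukocyte). For both lists they therefore give no level of free RNA. The 5 melanocyte genes found summed to 38.06 and 12.69 CPM, with 3 of them (MLANA, DCT and SOX10) at 0, against 9.173 and 3.186 CPM in endothelial and 11.07 and 8.096 CPM in all other cells. Of this sum, MITF, a transcription factor not confined to melanocytes, made up 37.3 and 10.94 CPM. Inner root sheath genes summed to 324.3 and 631.9 CPM in the selected cells and to 291 and 637.3 in the endothelial cells, so they were no higher than that reference in curly skin and close to it in straight skin. Suprabasal epidermal genes, 11 of 12 at least 2-fold lower than in all other cells, were at 1147 and 1026 CPM against 1518 and 3585 in endothelial cells, and hair shaft genes at 143.1 and 168.5 against 135.1 and 145.

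Sebaceous gland genes summed to 139.3 and 141.4 CPM in the selected cells, against 183.5 and 571.9 CPM in the endothelial cells. Sweat gland and myoepithelial genes summed to 460.5 and 812.7 CPM against 86.73 and 449.3, and KRT19 and KRT7, which are also on the keratin list, made up most of this sum. The markers by which the label of stem-like cells was checked were divided. TBX1, ID4 and LRIG1 were at least 2-fold higher than in LGR5-zero cells under both choices of those cells, and IGFBP3 at least 2-fold lower. TCF7L1 was present but no longer 2-fold higher in both libraries when LGR5-zero cells had to hold SFRP1, PPP2R2B or FIBIN. SOX9 was present and not 2-fold higher in both libraries, with or without either choice. FOXC1 and PHLDA1 were lower but not 2-fold in both libraries, and CD34, CD200 and LGR6 were scarce.

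The selected cells were not uniform in KRT19, a split chosen after the values were seen. KRT19 was found in 73 straight (37.44%) and 161 curly (44.85%) selected cells, against 7.407% and 4.396% of endothelial cells. KRT19-positive cells were deeper, at a median of 7596 and 6867 UMIs against 5323.5 and 5750.5 in KRT19-zero cells. Thinned to 3000 UMIs, KRT19 was in 32.89% and 39.5% of the selected cells and in 0.9434% and 4.348% of the endothelial cells.

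Of 3435 genes, 5 (0.146%) were at least 2-fold higher and 1 (0.0291%) lower in KRT19-positive cells of both libraries, and after thinning 2 and 0 of 1567. LCN2, lipocalin 2, was at 39.24 and 62.81 CPM in KRT19-positive and 8.247 and 8.132 CPM in KRT19-zero cells. LGALS1, galectin 1, was at 564.6 and 129 against 186.9 and 36.14. LOC101120093, CNN2 and RET were the other 3 of the 5, and KRT79, a keratin of the upper follicle, was the lower one at 11.94 and 10.18 CPM against 78.35 and 23.49. BGN was at 578.3 and 948.9 CPM against 336.8 and 493.3. KRT15 and TCF7L1 differed little between KRT19-positive and KRT19-zero cells (log2 ratios 0.09 and -0.12, and 0.05 and -0.07). SOX9 was lower in KRT19-positive cells of both libraries (-0.56 and -0.38, thinned -0.24 and -0.24). SFRP1 (-0.25 and -0.35) and LGR5 (-0.20 and -0.24) were slightly lower too, though LGR5 was at 0.29 and -0.09 when thinned. KRT8 was higher (0.67 and 0.75, thinned 0.40 and 0.26), and none of these genes was 2-fold apart.

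Between the libraries, the selected cells of curly skin differed from those of straight skin above all in interferon-induced genes. Of 3442 genes with at least 100 UMIs, 79 (2.3%) were at least 2-fold higher and 132 (3.83%) at least 2-fold lower in curly cells. The median gene was shifted by -0.11 on the log2 scale, and relative to it 89 genes were higher and 100 lower. Neither wool type can be told apart from its pool, its digestion or its library.

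IFI6, an interferon-induced mitochondrial protein, gave 33 UMIs in 6 of 195 straight cells (3.077%) and 32218 UMIs in 359 of 359 curly cells. In the straight library 32.59% of the endothelial cells held it. The level of IFI6 in selected cells was 25.12 CPM (straight) and 14099.6 CPM (curly), a log2 ratio of 9.11 (8.64 to 9.67). The ratio was 9.47 in LGR5-zero KRT15-high cells, 8.67 in other LGR5-positive cells and 6.83 in endothelial cells, so it was seen in every group examined.

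Of 11 interferon response genes with at least 20 UMIs, 10 were at least 2-fold higher in curly selected cells and 0 lower, where 3.21% of all genes were higher. ISG15, a ubiquitin-like modifier, went from 4 to 599 UMIs (log2 ratio 6.26, 5.06 to 8.31), and MX1, an antiviral GTPase, from 1 to 359 (7.11, 5.20 to 13.00). MX2 and IFIT1 had 0 UMIs in straight and 63 and 91 in curly cells, at least 12.1- and 17.4-fold higher. B2M, the light chain of MHC class I, was at 762.7 and 1975 CPM and IRF7, the gene that was not 2-fold higher, at 38.06 and 56.89. The list summed in selected cells to 853.3 CPM (straight) and 16729.4 CPM (curly), and to 4391 and 20473.5 in endothelial cells.

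BST-2A, a copy of the antiviral tetherin gene, had 0 and 360 UMIs, at least 69-fold higher, and reads shared with its sister copy could be split between them. LOC114117888, LOC105607568, LOC114117975 and LOC114117974 were also at 0 UMIs in straight selected cells, against 344, 226, 181 and 179 UMIs. In the straight endothelial cells these 4 genes were at 0 UMIs as well, and at 87, 48, 46 and 44 UMIs in the curly ones. LOC101117112 (2 and 1538 UMIs) and LOC105602911 (1 and 635) were the others of the 8 highest.

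Several of the genes lower in curly selected cells had most of their UMIs in few cells, in both libraries. CCL20, a chemokine that draws Langerhans and T cells, was at 96.67 CPM (straight) and 3.063 CPM (curly). All of its UMIs lay in 15 of 195 straight and 5 of 359 curly cells. FST, follistatin, an activin antagonist, was at 278.6 and 48.58 CPM. Of its UMIs, 20 of 195 straight cells held 80.6% and 36 of 359 curly cells 67.57%. SOD2, the mitochondrial superoxide dismutase, was at 234.5 and 36.32 CPM, with 79.55% and 66.27% in as many cells. The share of cells with a UMI also differed, at 35.9% (straight) and 17.83% (curly) for SOD2 and 33.85% and 10.58% for ITPKC. ITPKC, an inositol kinase, was at 181.2 and 31.95 CPM and FOSL1, an AP-1 factor, at 72.31 and 15.32.

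In straight skin 77 of 195 selected cells, and in curly skin 214 of 359, held no UMI of these 5 genes (CCL20, FST, SOD2, ITPKC and FOSL1). With the 20 straight and 36 curly cells highest in their sum left out, chosen after the values were seen, 70 genes were higher and 104 lower. FOSL1 and ITPKC differed less in LGR5-zero cells (log2 ratios -0.43 and -0.67), while HIGD1A was as low there (-2.33) as in selected cells (-2.37). SPP1, osteopontin, and LOC101117184 were the others of the 8 lowest. Whether the difference of FOSL1 between the groups of cells exceeds that between pools was not tested.

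**Figure D5:**
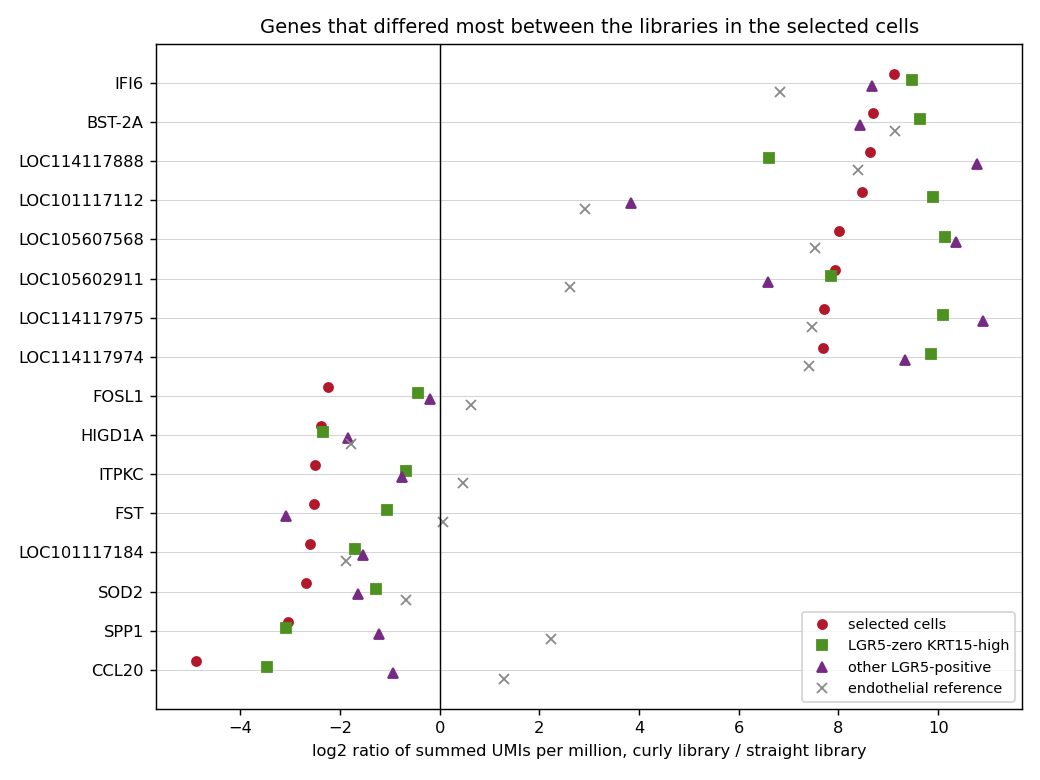
Log2 ratio of summed UMIs per 1000000 UMIs, curly over straight library (x axis), of the 8 genes highest and 8 lowest in the selected cells (red), with the same ratio in LGR5-zero KRT15-high cells (green), other LGR5-positive cells (purple) and endothelial reference cells (grey). IFI6 lies between 6.83 and 9.47 in the 4 groups and FOSL1 reaches -2.23 in the selected cells, and ratios of genes with 0 straight UMIs rest on the 0.5 UMI added and are not bounds.

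Stem cell lists were uneven between the wool types. Over all 8361 genes with at least 20 UMIs, 3.21% were at least 2-fold higher and 7.69% lower in curly selected cells, with a median of -0.17. Of 16 follicle stem cell transcription factors 0 were 2-fold higher and 0 lower in curly selected cells (median log2 ratio -0.10), and of 18 hemidesmosome and basement membrane genes likewise 0 and 0 (median -0.04). SOX9 was at 382.9 and 311.6 CPM and TCF7L1 at 50.24 and 64.33. Of 20 surface and secreted markers 1 was higher, DKK3 at 36.54 and 106.8 CPM (log2 ratio 1.54, 1.10 to 2.03), and 4 (20%) were lower, among them CXCL14 at 4886 and 2238 CPM and FST. With lists this short, 0 calls is close to those shares and was not read as a result. WIF1, a secreted WNT inhibitor, was at 44.15 and 6.127 CPM. In all other cells WIF1 was at 244.6 and 33.87 CPM, so it was also lower in curly skin there. DKK3 was likewise higher in curly LGR5-zero cells. Thinned, it was in 5.757% (straight) and 16.78% (curly) of those cells and in 10.74% and 29.15% of selected cells. In other LGR5-positive cells the shares were 2.51% and 3.457%.

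Of 19 BMP, activin and TGF-beta genes 0 were higher and 4 (21.1%) lower in curly selected cells, where 7.69% of all genes were lower. BMP2, a growth factor that keeps follicle stem cells quiet, was at 35.78 and 4.376 CPM, from 47 and 10 UMIs, and at 31.69 and 17.52 CPM in endothelial cells. TGFBI, a matrix protein induced by TGF-beta, was at 56.33 and 7.877 CPM. The receptor BMPR1A was at 31.21 and 23.63 CPM and the BMP target ID1 at 1267 and 852.5, neither 2-fold apart.

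Immediate early genes, which digestion of tissue can induce, were high in both libraries, with FOS at 2447 and 2269 CPM. The list of 21 genes summed in selected cells to 12661.1 CPM (straight) and 11207.8 CPM (curly), and to 12146.2 and 18770.4 in endothelial cells. FOS was uneven between cells, with a median of 6.502 and 2.219 CP10K and a highest value of 340.4 and 251.7. The part of these genes in the differences between libraries was not tested.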

How the data were processed

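Single-cell libraries of skin of straight and curly wool lambs (2 libraries, 3 pooled lambs each) were used. The authors aligned the reads to the sheep assembly Oar_rambouillet_v1.0 with STAR in Cell Ranger (version 3.0.2 in the submitters' processing notes), filtered cells, and deposited a single matrix (18161 genes, 14037 cells). What the authors deposited is, as the values show, ln(1 + CP10K), a natural log scale, where CP10K is UMIs scaled to 10000 per cell. The plan had foreseen raw counts, so UMI counts were recovered from the step of each cell, and 100% of values above 0 were whole within 0.01. Columns of comparisons between groups were not in the table.

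UMIs were summed per group of cells and library and given per 1000000 UMIs. A gene was counted as different at 2-fold in both libraries, or in 1 comparison between libraries, if it had at least 100 UMIs, with 0.5 UMI added to each sum, and gene lists took genes with at least 20 UMIs. Intervals are exact at 95% (Clopper-Pearson for shares, Poisson for levels, the binomial split of both sums for ratios), and a count of 0 was taken to allow 3. No p-value was calculated, since each wool type has 1 library. Shares were also taken after thinning to 3000 UMIs, which left out 46 straight and 40 curly selected cells. Neighbours were found per library on 30 principal components of 2000 variable genes (scanpy 1.11.5, scikit-learn 1.9.0, Python 3.11.15). Doublets were not removed, because the automatic threshold of Scrublet marked 58 straight cells (0.899%) and 2 curly cells (0.0264%) and so did not work in the curly library. Leaving out the 6% highest scores of each library was an alternative. Of 3912 LOC entries, 305 were given a symbol by gene ID from RefSeq ARS-UI_Ramb_v3.0, which served for names alone. The counting steps were tested on simulated data.

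The genes named are those of the rule, members of the lists, and the genes highest and lowest by the less extreme of both libraries (12 and 8 against LGR5-zero cells, 8 and 8 against other LGR5-positive cells, 12 highest against all others, 8 and 8 between libraries). The members and the lists were chosen with earlier results of these data known. The KRT19 split, the restrictions of the LGR5-zero cells and the removal of the cells highest in 5 genes were chosen after the values were seen. Mitochondrial and sex-linked genes were not analysed here.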

Additional observations from a re-analysis of the deposited data

Results flagged for a closer look

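KRT1, a keratin of suprabasal epidermis, was at 164.4 CPM (straight) and 78.34 CPM (curly) in selected cells, a log2 ratio of -1.07. In the endothelial reference cells, which are not known to make KRT1, it was at 291 and 852.3 CPM, a log2 ratio of 1.55. Its log2 ratios in LGR5-zero KRT15-high and other LGR5-positive cells were 0.13 and 0.26. The opposite directions in selected and endothelial cells brought this gene to attention. With 1 library per wool type the difference between these ratios was not tested.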

How the results depend on the processing

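No paired analysis was possible because each wool type has 1 library, and for the same reason no replicate could be left out. Depth limits genes with few UMIs: in selected cells 3 counts correspond to 2.284 CPM (straight) and 1.313 CPM (curly), and differences under such values were not detectable. Against LGR5-zero KRT15-high cells (125 higher and 197 lower), the counts were 73 and 112 with KRT15 at least 100 CP10K, 71 and 92 in thinned cells, 224 and 363 from 30 UMIs, 636 and 608 without a filter, and 54 and 85 against LGR5-zero cells with 1 of the 3 genes. Against other LGR5-positive cells (288 and 284), they were 70 and 81 with at least 2 LGR5 UMIs, 92 and 94 thinned, 457 and 543 from 30 UMIs, and 1295 and 956 without a filter, and with equal weight per cell 123 were higher. Against all other cells (697 higher), 462 were higher with equal weight per cell, 415 thinned and 3121 without a filter. Between libraries (79 and 132), the counts were 49 and 40 with KRT15 at least 100, 42 and 58 thinned, 197 and 472 from 30 UMIs, and 1065 and 2496 without a filter, and 79 genes were lower with at least 2 LGR5 UMIs. Thinning, a lower filter and fewer cells by construction change how many genes can be counted, and beyond that the cause was not tested.

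The selected cells made up 1.61% and 1.99% with KRT15 at least 100, 1.43% and 2.65% with at least 2 LGR5 UMIs, and 5.42% of curly cells with at least 5000 UMIs. The log2 ratio of shares was then 0.30 with KRT15 at least 100 and 0.92 from 5000 UMIs. Their neighbours were selected cells in 32.1% and 28.5%, in 18.5% and 35.7%, and, from 5000 UMIs, in 65.2% in curly skin. In thinned cells, 2 genes were higher and 0 lower in KRT19-positive cells. Without the LGR5-zero cells that held a gland UMI, TFF3, SCGB2A2, WFDC2, SNORC and LOC105604412 fell under 100 UMIs and could not be compared. For TFF3, SCGB2A2 and WFDC2, by which those cells were picked, 0 UMIs were left by construction. The fitted log2 ratios of the 5 genes (2.05, 2.78, 1.96, 1.96 and 0.00) rest on the 0.5 UMI added and were not read as results. Genes named by rank in a comparison kept their direction in it under the alternatives whose minimum of UMIs they passed. This does not hold for every named gene in every comparison. SPP1, named between the libraries, had a smaller log2 ratio of -1.63 against LGR5-zero cells. Without the LGR5-zero cells that held a gland UMI this value was 0.00, so SPP1 was no longer lower in both libraries.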
